A study of Mus musculus with 108 samples.

Results

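Single fully grown mouse oocytes that lacked Exosc10 were compared with control oocytes in polyadenylated RNA. All samples titled as GV oocytes with polyA libraries were taken, 15 knockout (cKO) and 7 control, 22 of the 108 samples in the series. GV (germinal vesicle) oocytes rest in prophase of the first meiotic division with an intact nucleus. The labels describe the knockout as oocyte-specific and name no Cre driver, strain or age, so how early in oocyte growth the gene was lost is not given in the sources used here. Per the labels, oocytes were held in M2 medium, lysed singly and captured on oligo(dT) beads, and a spike-in mix was added to every oocyte, knockout and control alike. The cKO oocytes came from 2 females, V857 (5 oocytes) and V888 (10), and the controls from 2 others, V856 (3) and V889 (4). No female had oocytes of both genotypes, so the female was the replicate of the main test.

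EXOSC10 is a ribonuclease that works with the nuclear RNA exosome, the complex that trims and degrades RNA from its 3′ end. Its known substrates include ribosomal RNA spacers, small nucleolar RNA (snoRNA) precursors and short-lived transcripts that are normally removed soon after they are made. A GV oocyte is close to transcriptionally silent and carries a store of maternal mRNA, which it later translates and degrades during maturation, so RNA that accumulated in growth can persist.

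Total gene counts were 5381816 to 7727869 per cKO oocyte and 5535240 to 6700256 per control. Reads outside annotated genes were 10.1% to 14.2% and 9.88% to 11.2% of each library. All changes are relative to the other genes of a library, because spike-in counts were not analysed here; RNA content per oocyte was not measured. Oocyte markers summed to 23079 to 27797 CPM (counts scaled to library size, as TMM-normalised CPM) in cKO oocytes and 24426 to 28256 CPM in controls. At an equal depth of 5000000 reads, 20210 ± 433.7 genes (SD, n = 15 oocytes) were detected in cKO oocytes and 18540 ± 521.6 (n = 7) in controls. The lowest cKO oocyte had 19390 genes and the highest control 19307, so the groups did not overlap. The female means differed by 1567 genes, and 2 females against 2 allow no exact permutation p below 0.333.

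Exosc10 (ENSMUSG00000017264, mm10 chr4:148558429-148582401, plus strand) was nearly absent from every cKO oocyte. It was at 0 CPM in the lowest cKO oocyte, 0.949 in the median one and 3.25 in the highest. Controls had 42.9, 47.3 and 55.4 CPM. The groups were separated by more than 10-fold, and all 22 oocytes matched their labels. The log2 fold change was -5.44 (SE 0.59, edgeR adjusted p = 0.00083). Of the other 11 exosome subunits edgeR called 0 and DESeq2 called Exosc2. In edgeR, Exosc2 had a log2 fold change of 1.03 (edgeR adjusted p = 0.0764; 0.0473 with library totals) and Dis3, the catalytic subunit of the core complex, -0.59 (adjusted p = 0.509).

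Loss of Exosc10 went with rises mainly among genes of low control level and with shallower falls among genes of higher level. Of 14606 genes tested, 1604 (11%) were called at an adjusted p under 0.05, 808 higher (5.53%) and 796 lower (5.45%) in cKO oocytes. Rises were larger: 723 were at least 2-fold, against 389 falls, and the median log2 fold changes were 1.97 and -0.98. With the 60 risers whose controls all held 3 counts or fewer set to their lower bounds, the median rise was 1.92. Risers had a median control level of 1.11 CPM per kilobase of exon, fallers 19.8, and all tested genes 4.45. In cKO oocytes the medians were 4.74 for risers and 9.40 for fallers. These levels come from the same oocytes as the calls, and a gene nearly silent in controls can hardly be called lower. Part of the difference in level therefore follows from the calling. In 291 risers every cKO oocyte lay above every control, and in 422 fallers every one lay below; over all tested genes, called or not, such separation occurred in 2.78% and 3.48%.

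**Figure D1:**
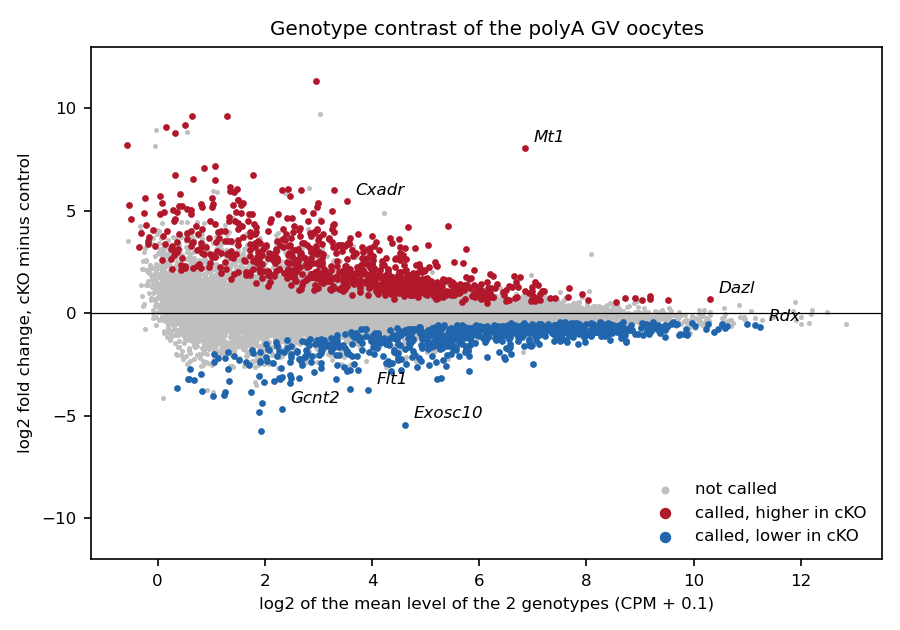
Log2 fold change (cKO minus control, vertical axis) of the 14606 tested genes against the log2 mean level of the 2 genotypes (horizontal axis, CPM + 0.1); each point is a gene. The 808 genes called higher lie mostly at low levels and reach large changes, and the 796 called lower lie further right with changes mostly near -1.

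The test took the spread between females over all 16 polyA females at 3 stages, since with the 4 GV females alone edgeR called 1 gene, Mt1, while 2977 reached an unadjusted p below 0.05. With library totals as the scale, the median of all genes moved from 0.04 to 0.20 and the share of higher calls from 50.4% to 73.9%, and small falls depended on this choice. Of the 1604 calls, 1236 held with library totals, 495 without control V856 and 136 without control V889. Without oocytes 4 and 9 of V888, described below, 1112 were called, 543 higher and 569 lower. Treating the 22 oocytes as samples called 5908 genes (40.4%), with p-values too small for a statement about females.

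Among called genes whose oocytes did not overlap and that reached 8 CPM, the largest change was in a gene for metal handling. Mt1, a metallothionein that binds zinc and copper (chr8:94179082-94180327, plus strand), had 0.290 CPM in the lowest control, 0.885 in the median and 1.15 in the highest. In cKO oocytes it had 130, 194 and 340 CPM. Every cKO oocyte of both females exceeded every control by over 100-fold. The log2 fold change was 8.08 (SE 1.39, edgeR adjusted p = 0.00437), with female means of 175 (V857) and 259 CPM (V888). Its neighbour Mt2 was too low to be tested: it had 0 to 0.334 CPM in V857, 0 to 6.86 in V888 and 0 to 0.161 in controls. The 3 oocytes with the most Mt2 all came from V888, and 4 cKO oocytes had no count of it.

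The stretches just before the annotated starts of this pair are shown because a metal-response core lies in both. The 250 bases before each RefSeq start (GRCm38.p6, plus strand) span chr8:94178839-94179088 for Mt1 and chr8:94172368-94172617 for Mt2. Capitals mark matches to TGCACNC or TGCGCNC on either strand, the core of the element bound by the zinc-sensing factor MTF1.
Mt1: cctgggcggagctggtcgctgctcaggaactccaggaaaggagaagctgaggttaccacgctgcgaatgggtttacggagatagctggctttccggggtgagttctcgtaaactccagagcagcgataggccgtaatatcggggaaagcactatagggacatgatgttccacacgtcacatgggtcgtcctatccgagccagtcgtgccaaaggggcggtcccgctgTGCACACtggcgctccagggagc
Mt2: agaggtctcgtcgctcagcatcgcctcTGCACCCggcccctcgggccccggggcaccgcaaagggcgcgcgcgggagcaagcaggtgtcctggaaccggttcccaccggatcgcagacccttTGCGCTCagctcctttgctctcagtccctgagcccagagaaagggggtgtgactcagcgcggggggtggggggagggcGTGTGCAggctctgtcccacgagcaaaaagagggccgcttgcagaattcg
Within these windows Mt1 had 1 match and Mt2 had 3. Bases outside the windows, including those after each start, were not searched, so the counts do not describe the whole promoters. Among 32851 promoter windows of the same length, 21.4% had at least 1 match and 1.26% at least 3. The matches describe the letters only.

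Of 20 tested genes for metallothioneins and zinc, 5 were called, all higher (25%, against 5.53% of all tested genes), and the median log2 fold change was 0.64 against 0.04 over all genes. Slc39a1, a plasma membrane zinc importer, had 0.145, 0.577 and 1.44 CPM in the lowest, median and highest control and 5.81, 10.9 and 52.3 in cKO oocytes, again without overlap (log2 fold change 5.01, edgeR adjusted p = 0.00466). The importer Slc39a4 rose by 2.82 (adjusted p = 0.0460; 0.0548 without V888 oocytes 4 and 9). Among exporters, Slc30a7, which loads zinc into the Golgi, rose by 2.24 (adjusted p = 0.0343). Slc30a2, which loads vesicles, rose by 1.85 (adjusted p = 0.0142). Mtf1 itself was at 319 CPM in cKO oocytes and 292 in controls (log2 fold change 0.07, adjusted p = 0.822). Slc30a1, a classical MTF1 target that exports zinc, was near its limit of detection in both genotypes, with means of 0.346 and 0.383 CPM.

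**Figure D2:**
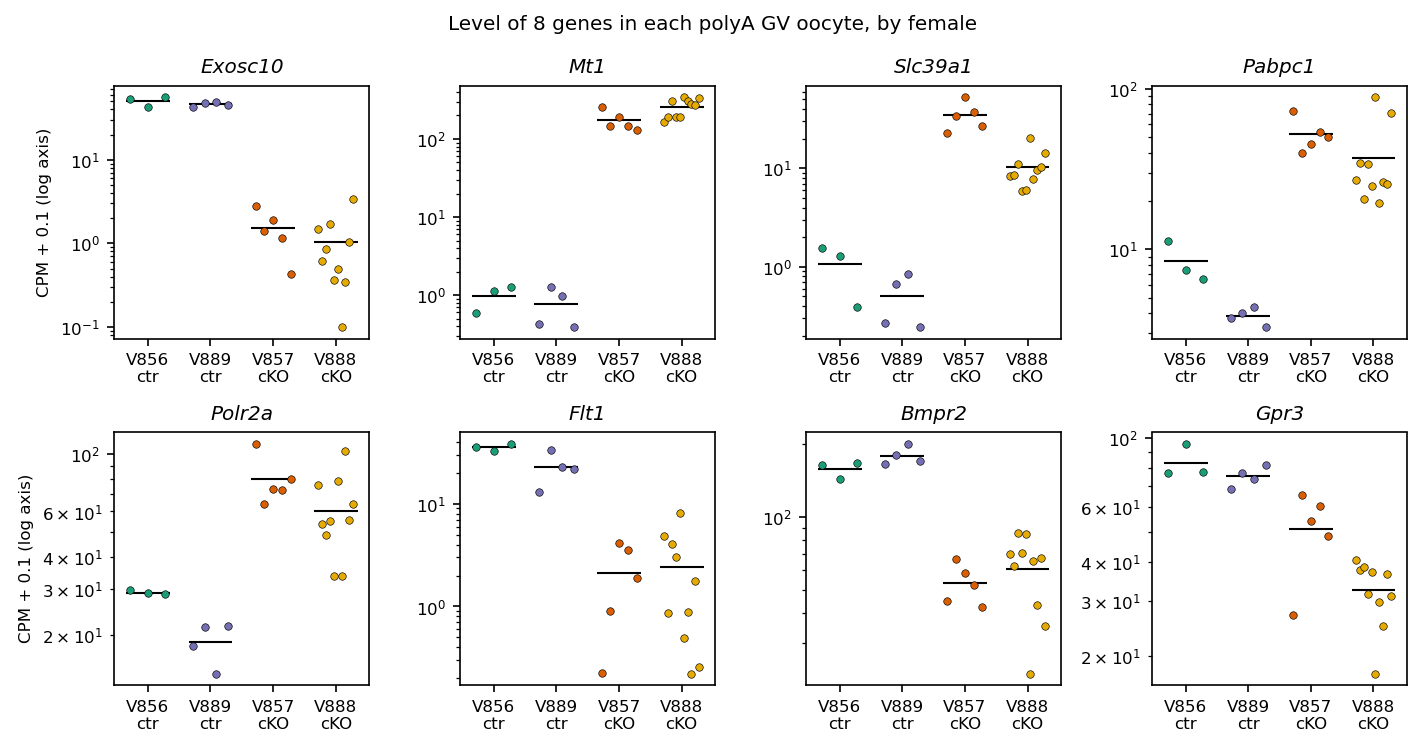
Level of 8 genes (CPM + 0.1, log axis) in each oocyte, by female; points are oocytes and bars are means of a female. Exosc10 separates the genotypes downwards and Mt1 upwards in all 22 oocytes, and the other 6 genes do so with smaller gaps.

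The 10 largest rises with separated groups and a level of at least 8 CPM held Mt1, Slc39a1 and 8 others of unrelated roles, all near silence in controls. Tyro3, a receptor tyrosine kinase that recognises dying cells, had 0, 0 and 1.12 CPM in the lowest, median and highest control and 4.33, 11.3 and 23.4 in cKO oocytes (log2 fold change 6.01, edgeR adjusted p = 0.0122). Hdx, an X-linked homeobox gene, had a mean of 19.1 ± 10.3 CPM (SD, n = 15) against 0.262 ± 0.293 (n = 7), also 6.01 on the log2 scale. The 2 cKO females differed in it, at 9.05 CPM (V857) and 24.1 (V888). Cxadr, a cell adhesion molecule of tight junctions, averaged 46.3 CPM in V857 and 10.4 in V888 against 0.590 and 0.644 in the control females (5.49, adjusted p = 0.00083). Its 15 cKO oocytes nonetheless all lay above the controls.

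The remaining large rises were the pseudogene Adgrd2-ps (log2 fold change 5.74), the fatty acid transporter Slc27a4 (4.83) and Dcaf12l1 (4.63), followed by the histone deacetylase Hdac11 (4.53) and Zfp367 (4.36). Their control means lay between 0.215 and 1.02 CPM and their cKO means between 8.91 and 18.4 CPM, with edgeR adjusted p-values of 0.00327 to 0.0345. Every cKO oocyte exceeded every control for each of them. In the fit without V888 oocytes 4 and 9 all 10 stayed called.

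Reads over a snoRNA gene appeared in the oligo(dT) libraries of every cKO oocyte. Snord118 (U8), which guides cleavage in the maturation of the large-subunit ribosomal RNA, had 15 to 50 counts in each of the 15 cKO oocytes, and 0 counts in 6 controls with 1 in the other. The mean of 3.99 ± 1.48 CPM (SD, n = 15) was at least 8.63-fold above 3 counts per control library (edgeR adjusted p = 0.00214). It was 1 of 3 genes of snoRNA biotype abundant enough to be tested, of which 1 rose and 1 fell. Snord118 (chr11:69073427-69073561) follows Tmem107 (chr11:69070806-69073293) on the same strand, and Tmem107 rose from a mean of 31.1 to 82.6 CPM (adjusted p = 0.0322). Tmem107 was at 27.3 to 65.1 CPM in V857, overlapping the controls (24.3 to 38.7), and 72.1 to 143 in V888. In RiboMinus GV libraries, which were made without selecting polyadenylated RNA and came from other females, the log2 difference of Snord118 was 0.14. Whether the reads came from the snoRNA or from longer Tmem107 transcripts was not tested. Snord118 was chosen for description after its values were seen.

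The 10 largest falls with separated groups, Exosc10 included, had control means of 8.35 to 69.6 CPM and cKO means of 0.352 to 8.45 CPM. Gcnt2, a branching enzyme of glycans, had 5.48, 10.6 and 14.4 CPM in the lowest, median and highest control and 0, 0.133 and 1.30 in cKO oocytes (log2 fold change -4.69, edgeR adjusted p = 0.00221). Flt1, a receptor for vascular endothelial growth factor, had 12.8, 32.2 and 38.1 CPM in controls and 0.122, 1.66 and 8.01 in cKO oocytes (-3.75, adjusted p = 0.00294). Both groups of oocytes were separated for both genes. Kdr, the related receptor, was too low to test, with 1.15 to 5.83 CPM in controls and no count in 9 of the 10 oocytes of V888.

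Chst11, which sulfates chondroitin, fell by 3.71 on the log2 scale to 1.82 ± 1.27 CPM (SD, n = 15) from 21.9 ± 7.76 (n = 7). Dmrtb1, a germ cell transcription factor, fell by 3.19, the transmembrane adhesion protein gene Tenm3 by 3.17 and the bZIP factor gene Batf3 by 3.16. The lincRNA Gm13715 fell by 3.20. The adjacent annotations Gm49367 and A630095E13Rik fell by 3.22 and 3.14 with near-equal levels, 66.7 and 69.6 CPM in controls. They overlap over 7623 bases on one strand, so reads of that stretch cannot be assigned to one of them. EdgeR adjusted p-values of these 7 genes were 0.00083 to 0.0270, and Exosc10 was the remaining fall of the 10.

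The 5 largest falls in CPM among called genes were of abundant transcripts. Rdx, a membrane to actin linker, had 2634, 2975 and 3289 CPM in the lowest, median and highest control and 1308, 1834 and 2604 in cKO oocytes, without overlap (log2 fold change -0.68, edgeR adjusted p = 0.0174; 0.0584 with library totals). Bcl2l10, an oocyte survival factor of the BCL2 family, fell without overlap from a mean of 1881 to 1189 CPM (-0.74). The ubiquitin ligase component Skp1a fell from 2659 to 1876 CPM (-0.57), the ubiquitin ligase Rfpl4 from 1688 to 972 (-0.92) and the laminin chain Lamb1 from 2411 to 1705 (-0.53), each with some overlap. With library totals Rfpl4 and Lamb1 had adjusted p-values of 0.0823 and 0.0921, and Rfpl4 had 0.0755 without V888 oocytes 4 and 9.

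The 5 largest rises in CPM among called genes were led by Dazl, an RNA-binding protein that promotes translation in the oocyte. It had 817, 947 and 1102 CPM in controls and 1097, 1569 and 2126 in cKO oocytes, of which 14 of 15 exceeded every control (log2 fold change 0.68, adjusted p = 0.0301). The nucleic acid binding protein gene Cnbp rose from 570 to 907 CPM (0.66; adjusted p = 0.0534 without V888 oocytes 4 and 9). The ER chaperone gene Hspa5 rose from 400 to 767 (0.83). The oocyte transcription factor gene Nobox rose from 363 to 593 CPM with no overlap (0.73). The mitochondrial mt-Nd1 rose from 428 to 732 CPM (0.72), overlapping the controls in 4 oocytes, and its log2 difference in RiboMinus GV libraries was -0.89.

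Of 20 tested exosome cofactors, 4 were called, all higher (20%, against 5.53% of all tested genes), with a median of 0.08. Srrt (ARS2), which links capped nuclear RNA to the exosome, had 12.7, 24.7 and 47.0 CPM in the lowest, median and highest control and 49.8, 66.4 and 142 in cKO oocytes, without overlap (log2 fold change 1.38, edgeR adjusted p = 0.00409). Its cap-binding partner Ncbp1 rose by 2.14, C1d, a direct partner of EXOSC10, by 2.61, and the SKI complex subunit Wdr61 by 1.06; without V888 oocytes 4 and 9 Wdr61 had an adjusted p of 0.114.

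In 5′ decay and deadenylation 6 of 28 genes were called, 3 each way (10.7%, against 5.53% higher and 5.45% lower of all tested genes), with a median of -0.10. The catalytic deadenylase Cnot7 fell by 1.42: controls had 519, 580 and 698 CPM and cKO oocytes 118, 241 and 381 (adjusted p = 0.00797). The groups did not overlap. The decapping enzyme Dcp2 fell by 0.80, also without overlap. Btg4, an adaptor that recruits the CCR4-NOT deadenylase to maternal mRNA during maturation, fell by 0.75 from 1464 to 937 CPM. The related adaptor Tob1 rose by 1.34, the decapping activator Lsm1 by 1.77 and Zfp36l2, which binds AU-rich elements and recruits deadenylases, by 1.60. In nonsense-mediated decay, Smg5, which takes part in the removal of targeted mRNA, rose by 2.07 without overlap, and Upf3a rose by 1.02. Tob1, Zfp36l2 and Upf3a were no longer called without V888 oocytes 4 and 9 (adjusted p = 0.134, 0.0636 and 0.0552).

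Of 31 RNA polymerase II and elongation genes 6 rose (19.4%, against 5.53% of all tested genes) and 0 fell, with a median of 0.08 against 0.04 over all genes. Polr2a, the largest subunit, had 14.0, 21.4 and 29.5 CPM in the lowest, median and highest control and 33.6, 63.9 and 110 in cKO oocytes, without overlap (log2 fold change 1.53, edgeR adjusted p = 0.00670). The elongation factor Ell2 rose by 2.05 (adjusted p = 0.00280) and the P-TEFb kinase Cdk9 by 2.29 (0.0128), also without overlap. Cdk13 (1.00), Nelfb (1.66) and Eloa (2.44) rose with overlap and were not called without V888 oocytes 4 and 9 (adjusted p = 0.108, 0.0682 and 0.0517).

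Splicing regulators of the SR and hnRNP families had 8 of 32 members called, 7 higher (21.9%, against 5.53% of all tested genes) and 1 lower (3.12%, against 5.45%), with a median of 0.29. Srsf6 rose from 12.1 ± 3.13 (SD, n = 7) to 34.2 ± 8.66 CPM (n = 15), Hnrnpab from 33.9 ± 3.53 to 86.4 ± 30.2 and Hnrnpr from 14.9 ± 3.28 to 33.7 ± 10.7, each without overlap (edgeR adjusted p = 0.0152, 0.0129 and 0.00919). Srsf5, Srsf9, Srsf11 and Hnrnpm also rose, by 0.69 to 1.47, and Srsf4 fell by 0.68 (adjusted p = 0.117 with library totals). Srsf5, Hnrnpm and Srsf4 were not called without V888 oocytes 4 and 9 (adjusted p = 0.0672, 0.0639 and 0.0804). In histone mRNA end processing 2 of 16 were called, both higher: Cstf2, by 1.30, and Srrt. That share was 12.5%, against 11% of all tested genes called and 5.53% called higher.

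Of 47 ribosome biogenesis genes 8 were called (17%, against 11% of all tested genes), 6 higher and 2 lower. Polr1c, a subunit of RNA polymerases I and III, rose by 1.91, the snoRNP core protein Nop58 by 0.64, Bop1 by 1.66 and the methyltransferase Nop2 by 2.40, all without overlap. The polymerase I factors Ubtf (2.53) and Taf1c (3.24) rose unevenly over oocytes and were not called without V888 oocytes 4 and 9 (edgeR adjusted p = 0.0693 and 0.0519). Dkc1, the pseudouridine synthase of box H/ACA snoRNPs, fell by 1.03 without overlap (adjusted p = 0.0140), and Taf1a by 0.56 (0.112 with library totals). Of 15 snoRNA host genes 2 rose (13.3%, against 5.53% of all tested genes): Gas5 by 1.01, and Snhg20, whose controls all held 3 counts or fewer, at least 3.21-fold. Neither passed without V888 oocytes 4 and 9, and the list's median was 0.36.

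Of 23 genes that act on Cdk1, the kinase that drives nuclear breakdown, 3 were called, a share near the 11% of all tested genes. Cdk1 and its cyclins had log2 fold changes of -0.26 (Cdk1), -0.14 (Ccnb1) and 0.22 (Ccnb2) with edgeR adjusted p-values of 0.315 to 0.653. Ccnb3, a cyclin that acts in the exit from meiosis I, fell by 1.87 from 7.76 ± 1.51 CPM (SD, n = 7) to 2.31 ± 1.03 (n = 15), without overlap. Mapk3 (ERK1) had 270, 292 and 334 CPM in controls and 93.5, 143 and 168 in cKO oocytes, without overlap (-1.17, adjusted p = 0.0224).

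Wee1, the kinase that inhibits Cdk1, had a log2 fold change of 2.13 (adjusted p = 0.0456), but 0.0869 without V888 oocytes 4 and 9. Among 17 genes of cAMP and protein kinase A signalling, which controls arrest, 2 were called, both lower. That share was 11.8%, against 11% of all tested genes called and 5.45% called lower. Gpr3, the receptor that keeps cAMP high, had 68.6, 77.3 and 95.5 CPM in controls and 17.5, 37.2 and 65.6 in cKO oocytes, without overlap (-0.97, adjusted p = 0.0124). The regulatory subunit of protein kinase A Prkar2b fell by 1.52. The phosphodiesterase Pde3a, which breaks cAMP down, was at 282 CPM against 448, without overlap (-0.66, adjusted p = 0.0521).

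Of 33 genes of the anaphase-promoting complex and spindle checkpoint, 4 fell (12.1%, against 5.45% of all tested genes) and 1 rose (3.03%, against 5.53%), with a median of -0.14; with library totals 3 were lower and 2 higher, with a median of 0.03. Ttk (MPS1), the kinase that starts the spindle checkpoint, had 358, 380 and 409 CPM in the lowest, median and highest control and 141, 205 and 229 in cKO oocytes, without overlap (log2 fold change -0.94, edgeR adjusted p = 0.00397). The inhibitors of the complex Fbxo5 (EMI1) and Fbxo43 (EMI2) fell by 0.67 and 0.64 (Fbxo43 with an adjusted p of 0.0564 under library totals) and the kinase gene Aurkc by 0.80. Fzr1 (CDH1), the activator that restrains cyclin B in prophase arrest, rose from 164 to 322 CPM without overlap (0.94; adjusted p = 0.0521 without V888 oocytes 4 and 9).

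Spindle and microtubule genes fell in 7 of 40 cases (17.5%, against 5.45% of all tested genes) and rose in 1 (2.5%, against 5.53%), with a median of -0.16; with library totals 2 were lower and 2 higher, with a median of 0. Tacc3, a spindle scaffold, had 973, 1230 and 1277 CPM in controls and 570, 705 and 811 in cKO oocytes, without overlap (-0.75, adjusted p = 0.00686). The other falls were those of the centrosomal protein genes Pcnt (-0.75), Cdk5rap2 (-1.05) and Nin (-0.69), and of Haus3 (-0.67), Kif23 (-0.75) and Kif5b (-0.56; adjusted p = 0.0923 without V888 oocytes 4 and 9). Haus2, another augmin subunit, rose by 1.84 without overlap. In the actin list 3 of 29 were called (10.3%, against 11% of all tested genes). Spire1, a nucleator of the oocyte's actin mesh, fell by 0.93, Rdx fell as above and Arpc4 rose by 1.22. With library totals, 3 of the 8 spindle calls and 2 of the 6 cohesin and condensin calls remained.

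The 6 called of 23 cohesin and condensin genes (26.1%, against 11% of all tested genes) were the falls of Ncapg (-0.82), Smc4 (-0.66), Ncapd3 (-0.57) and the acetyltransferase Esco1 (-0.77), and the rises of Smc2 (1.06) and Esco2 (0.55). With library totals none of the 4 falls was called (Ncapg lowest, edgeR adjusted p = 0.0653), and the list had 3 higher and 0 lower. Ncapg and Smc4 fell without overlap. Smc2 and Smc4 are partners in condensin and moved in opposite directions. Esco1 and Smc2 were not called without V888 oocytes 4 and 9 (edgeR adjusted p = 0.0523 and 0.0756).

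Of 15 oocyte markers 3 were called (20%, against 11% of all tested genes), the rises of Ddx4, Dazl and Nobox, and the median was -0.08. Gdf9 and Bmp15, growth factors that direct the follicle, were at 4690 against 4663 CPM and 2790 against 2931 (edgeR adjusted p = 0.902 and 0.384). None of the zona genes Zp1, Zp2 and Zp3 was called, with log2 fold changes of -0.09, 0.53 and 0.28. In the fertilisation list 2 of 18 were called (11.1%, against 11% of all tested genes). The sperm receptor Izumo1r (JUNO) fell by 0.82 and the calcium sensor Stim1 rose by 3.21 (adjusted p = 0.0501 without V888 oocytes 4 and 9). With library totals Izumo1r had an adjusted p of 0.0576. The maternal-effect list had 3 of 19 called (15.8%, against 11%): Nlrp2 fell by 0.89, Nlrp4f by 0.52 without overlap, and Trim28, a cofactor that protects imprints, rose by 1.09. The falls of Nlrp2 and Nlrp4f had adjusted p-values of 0.0618 and 0.0719 with library totals.

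Of 24 growth factor and follicle signalling genes 3 fell (12.5%, against 5.45% of all tested genes) and 2 rose (8.33%, against 5.53%), with a median of -0.21. Bmpr2, the receptor for BMP15 and GDF9, had 143, 166 and 200 CPM in the lowest, median and highest control and 22.4, 62.4 and 85.7 in cKO oocytes, without overlap (log2 fold change -1.61, edgeR adjusted p = 0.00750). Il6st (gp130) fell by 0.99 without overlap, and Flt1 is described above. Tgfbr1 rose by 1.55 and Pdgfa by 1.96, the latter with an adjusted p of 0.0923 without V888 oocytes 4 and 9. The gap junction gene Gja4 was at 765 against 1327 CPM (-0.73, adjusted p = 0.0772), and the growth factor gene Fgf8 at 52.6 against 116 (-1.02, adjusted p = 0.0522).

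Among 18 oocyte transcription factors 4 were called (22.2%, against 11% of all tested genes): Nobox and Taf4b (0.91) rose and Sebox and Foxo3 fell. Sebox, a maternal homeobox gene, had 163, 191 and 212 CPM in controls and 29.1, 55.9 and 148 in cKO oocytes, without overlap (-1.60, adjusted p = 0.00452). Foxo3, which restrains follicle activation, fell by 0.61 (0.0882 with library totals). Sohlh1 was too low to test and appeared mainly in V857, whose 5 oocytes had 0.247 to 23.8 CPM, against 0 to 0.290 in every other oocyte of both genotypes.

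Storage and translation of maternal mRNA had 6 of 34 genes called, 3 each way (8.82%, against 5.53% higher and 5.45% lower of all tested genes). Pabpc1, the somatic poly(A) binding protein, had 3.19, 4.28 and 11.2 CPM in controls and 19.4, 34.4 and 88.1 in cKO oocytes, without overlap (log2 fold change 2.86, edgeR adjusted p = 0.00555). Cpeb2, a regulator of cytoplasmic polyadenylation, rose by 2.77, and Dazl rose as above. The poly(A) polymerases Tent5c and Papolg fell by 0.63 and 0.73, and Rbpms2 by 0.61 (adjusted p = 0.106 with library totals). Germ granule and small RNA genes had 3 rises (12%) and 2 falls (8%) of 25. The RNA helicase Ddx4 (VASA) rose by 1.71, the PIWI protein gene Piwil2 by 3.85 without overlap and the mitochondrial nuclease Pld6 by 1.31. Ago3 fell by 1.09 and Tdrd1 by 0.70, both without overlap (Tdrd1 0.0718 with library totals). Ddx4 and Pld6 were not called without V888 oocytes 4 and 9 (adjusted p = 0.0645 and 0.0713).

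Of 28 Polycomb and BET genes 3 fell and 3 rose, and with library totals 6 were higher and 0 lower; 21.4% were called, against 11% of all tested genes. The core subunits of Polycomb complex 2 Ezh2 and Suz12 fell by 0.71 and 0.74 and Pcgf3 by 0.87. With library totals these 3 falls had edgeR adjusted p-values of 0.0819 to 0.104. The chromobox gene Cbx7 rose from 2.95 to 30.4 CPM without overlap, and Cbx8 (3.35) and the bromodomain gene Brd3 (1.43) also rose. Without V888 oocytes 4 and 9, 2 of the 6 calls remained, Ezh2 and Brd3. In the DNA methylation list 2 of 19 were called, both higher (10.5%, against 5.53% of all tested genes). Tet2, an oxidase of methylcytosine, had 1.01, 8.03 and 9.99 CPM in controls and 13.5, 21.1 and 35.3 in cKO oocytes, without overlap (1.65, adjusted p = 0.0103), and Uhrf2 rose by 2.76 (0.0647 without V888 oocytes 4 and 9). Dnmt1, Dnmt3a, Dnmt3l and Dppa3 had log2 fold changes of -0.19, -0.54, -0.42 and -0.34, none called.

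Of 42 endosome genes 6 rose (14.3%, against 5.53% of all tested genes) and 1 fell, and all 7 stayed called without V888 oocytes 4 and 9. Pikfyve, the kinase that makes the lipid of late endosomes, had 62.9, 73.0 and 96.9 CPM in the lowest, median and highest control and 153, 184 and 281 in cKO oocytes, without overlap (log2 fold change 1.38, edgeR adjusted p = 0.00397). Rab5a (1.70) and Rab5b (1.77), GTPases of early endosomes, rose with their exchange factor Rabgef1 (1.56), the effector Rabep2 and the sorting protein Stam2 (1.19). Rabep2 was at least 7.74-fold above 3 counts per control library. Rab7, the GTPase of late endosomes, fell by 0.99 without overlap, from 264 to 143 CPM. Of 45 Rab genes tested in all, 4 rose (8.89%) and 2 fell (4.44%), Rab8b with the larger fall (-1.74).

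The lysosomal protease Ctsb rose by 0.81 (edgeR adjusted p = 0.0633 without V888 oocytes 4 and 9). It was the only call among 30 lysosome and autophagy genes (3.33% higher, against 5.53% of all tested genes). In the list of ER, Golgi and trafficking coat genes 3 of 30 were called (10%, against 11% of all tested genes). Arf4 rose by 2.59, and Arcn1 and Gbf1 fell by 0.52 each (adjusted p = 0.0816 and 0.146 with library totals, which gave 3 higher and 0 lower). Gbf1 had an adjusted p of 0.0548 without V888 oocytes 4 and 9. Of 39 nuclear pore genes 2 fell (5.13%, against 5.45% of all tested genes), and with library totals 3 were higher and 0 lower. The falls were of Nup35 (-0.57) and Nup214 (-0.62), with edgeR adjusted p-values of 0.135 and 0.115 under library totals and of 0.0608 and 0.0515 without V888 oocytes 4 and 9. In the lamina and envelope list 5 of 22 were called (22.7%, against 11% of all tested genes). Lmna, which encodes lamin A and C, had 228 to 263 CPM in controls and 113 to 204 in cKO oocytes without overlap (-0.69, adjusted p = 0.0434; 0.0949 with library totals), and Lpin2 fell by 0.58. The inner membrane genes Lemd3 (2.97), Nemp1 (1.54) and Lemd2 (4.65) rose. Lemd2, Lmna and Lpin2 were not called without V888 oocytes 4 and 9 (adjusted p = 0.0513, 0.0568 and 0.0521).

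Of 23 genes of ER stress and the integrated stress response, 4 rose (17.4%, against 5.53% of all tested genes) and 3 fell (13%, against 5.45%). The median was 0.37, and with library totals 8 were higher and 1 lower. Eif2ak3 (PERK), an ER stress sensor, rose by 1.91 without overlap, from 5.08 ± 1.41 CPM (SD, n = 7) to 18.0 ± 8.11 (n = 15; edgeR adjusted p = 0.00701). Its downstream factor Ddit3 (CHOP) rose by 1.54, with female means of 69.6 CPM in V857 and 206 in V888 against 46.8 and 46.9. Xbp1 rose by 3.91, unevenly over oocytes (adjusted p = 0.109 without V888 oocytes 4 and 9). The ER stress sensor Ern1 (-0.53), the amino acid sensor Eif2ak4 (-0.82) and the co-chaperone Dnajc3 (-0.64) fell, with library totals giving adjusted p-values of 0.0846, 0.0682 and 0.0255. Atf4, between PERK and CHOP, was at 314 against 246 CPM (0.23, adjusted p = 0.554).

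Cytosolic chaperones had 3 rises of 25 (12%, against 5.53% of all tested genes), Hsf2 (2.63, no overlap), Hspa4 (0.65) and Cct4 (1.35), and 1 fall, Stip1 (-0.68). Hspa4 and Cct4 were not called without V888 oocytes 4 and 9 (edgeR adjusted p = 0.0893 and 0.0739). Of 21 antioxidant genes 3 were called (14.3%, against 11% of all tested genes), the rise of Gpx1 (1.30, no overlap) and the falls of Prdx1 (-0.82) and Slc7a11 (-0.98; adjusted p = 0.0663 without those oocytes and 0.0626 with library totals). In the p53 list 2 of 21 were called (9.52%, against 11% of all tested genes). Trp63, which eliminates damaged oocytes, rose by 0.88 and Trp53bp1 fell by 0.59 (adjusted p = 0.0666 with library totals, which gave 4 higher and 0 lower). Immediate early genes had 4 rises of 14 (28.6%, against 5.53%), Ier2, Mcl1, Klf6 and Btg1. Only Klf6 stayed called without V888 oocytes 4 and 9 (adjusted p = 0.0228). Fos and Jun were too low to test and reached 11.3 and 9.31 CPM in oocyte 4 of V857 alone; no other oocyte exceeded 4.55 and 0.975.

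Of 24 glycolysis and pyruvate genes edgeR called 0, with 3 at an unadjusted p under 0.05 and 0 called by DESeq2 or limma. Of 36 nuclear genes of respiratory complex I it called 0, with 1 at an unadjusted p under 0.05, 1 called by DESeq2 and 0 by limma. Uba1, Psma5 and Psmc5 fell by 0.54 to 0.75 among 37 ubiquitin and proteasome genes (8.11%, against 5.45% of all tested genes), and none of these 3 stayed called with library totals. Hmgcs1 of sterol synthesis fell by 0.49 (adjusted p = 0.128 with library totals). Of 76 ribosomal protein genes 3 rose (3.95%, against 5.53%) and 1 fell (1.32%, against 5.45%). That fall was Rpl17, from 154 ± 26.6 (SD, n = 7) to 38.6 ± 10.6 CPM (n = 15; log2 fold change -1.99, edgeR adjusted p = 0.00083), next to a median of 0.19 for the group.

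**Figure D3:**
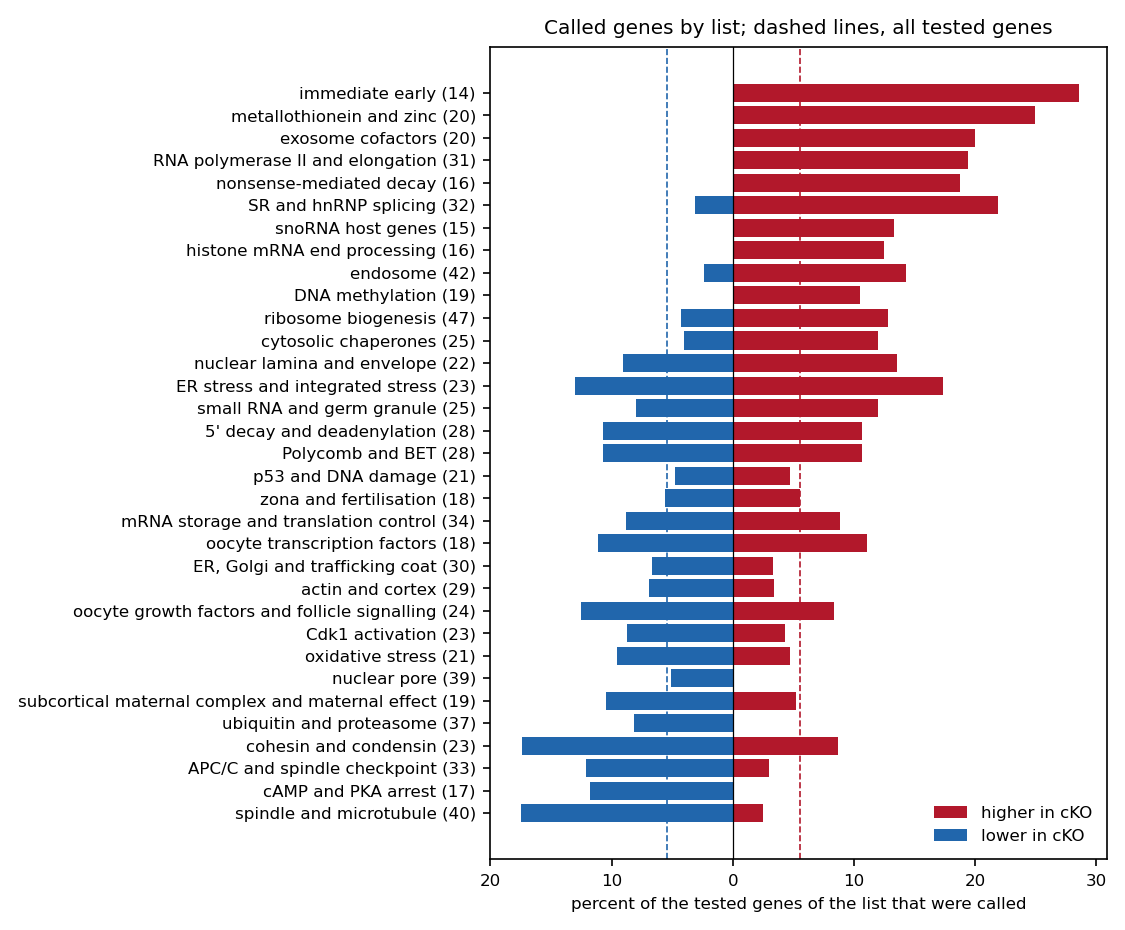
Share of the tested genes of each list (number tested in brackets) that were called higher (red, right) or lower (blue, left) in cKO oocytes, for the pathway and process lists with at least 2 called genes (gene classes, biotypes and cell type markers are not drawn). Dashed lines mark the shares over all tested genes, 5.53% and 5.45%. Among the lists drawn the immediate early (28.6%) and metallothionein and zinc (25%) lists reach furthest to the right, and the spindle and the cohesin and condensin lists to the left.

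Replication-dependent histone genes, whose mRNAs normally end without a poly(A) tail, had 4 of 25 tested members called, all higher (16%, against 5.53% of all tested genes), and a median of 0.99. The linker histone gene Hist1h1e had 2.91 to 11.6 CPM in V857, 17.9 to 37.0 in V888 and 0.171 to 1.88 in controls. Every cKO oocyte lay above every control, and the 2 cKO females did not overlap (log2 fold change 4.11, edgeR adjusted p = 0.00650). Hist1h4d (3.97), Hist1h4i (1.82) and Hist3h2ba (1.40) also rose, and 3 of the 4 calls held without V888 oocytes 4 and 9. Histone genes took 0.0345% ± 0.00982 of cKO counts (SD, n = 15) and 0.0211% ± 0.00233 of control counts (n = 7); the mean was 0.0236% in V857 and 0.0400% in V888.

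By annotation, lincRNAs had 18 rises (2.54%, against 5.53% of all tested genes) and 41 falls (5.79%, against 5.45%) of 708 tested, and with library totals 24 rises and 28 falls. Antisense RNAs had 18 rises (2.78%) and 22 falls (3.40%) of 647. Protein-coding genes had 725 rises (5.89%) and 694 falls (5.63%) of 12318. The strand setting of the counting is not given in the sources used here, so reads of antisense and overlapping genes cannot be told apart.

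Markers of other ovarian cells were examined for RNA from cells attached to the oocyte. Of 21 granulosa and cumulus markers 10 were abundant enough to test, and edgeR called 0, with 1 at an unadjusted p under 0.05 and 0 called by DESeq2 or limma. Their summed level was 238 to 300 CPM in cKO oocytes and 238 to 331 in controls, and the cumulus markers Ptx3 and Tnfaip6 were at 0 in all 22 oocytes. Theca and stroma markers summed to 0.774 to 9.26 CPM against 0.166 to 3.60, higher on average in cKO oocytes, with 2 tested and 0 called (0 at an unadjusted p under 0.05). Blood and endothelium markers summed to 58.5 to 121 CPM against 74.1 to 95.3. EdgeR called 0 of the 2 tested (Pecam1 and Tek), with 1 at an unadjusted p under 0.05. Ptprc, Hba-a1, Hbb-bt and Cdh5 were at 0 in all oocytes, and no untested marker averaged above 0.196 CPM in either genotype. The part of these levels in the genotype differences was not tested.

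The cKO oocytes were not alike, and those of V888 did not form one group. On the first principal component of log2(CPM + 1), with 38.1% of the variance, the 5 oocytes of V857 lay at 56.7 to 72.0 and the controls at -63.1 to -33.5. Of the 10 oocytes of V888, oocytes 4 and 9 lay at 59.8 and 49.8, with V857, oocyte 7 at 14.7, and the other 7 at -24.1 to -4.94. On the second component (23.8%) all 10 V888 oocytes were at 13.6 to 51.6, above V857 (-44.1 to -0.877) and the controls (-43.5 to -27.3). Exosc10 was low in oocytes 4, 9 and 7, at 0.398, 3.25 and 0.245 CPM.

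**Figure D4:**
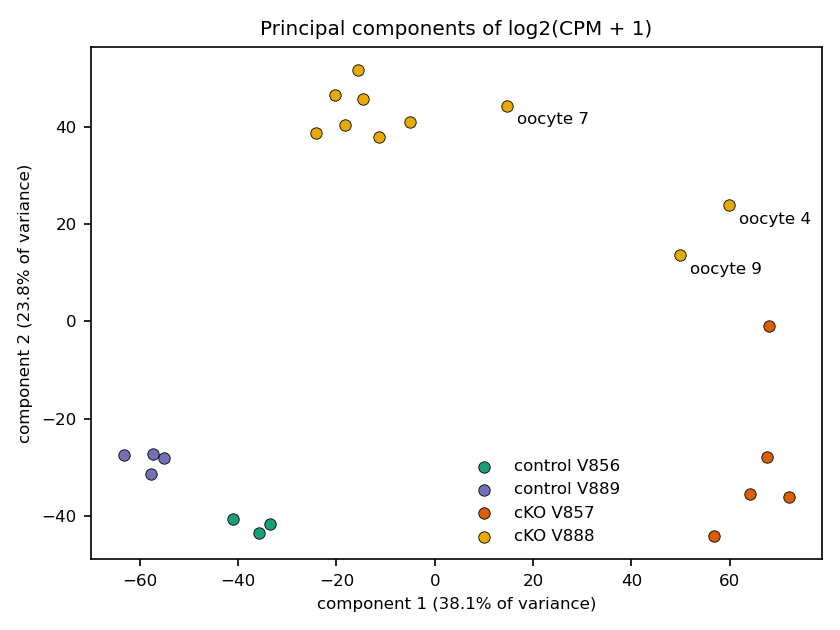
Scores of the 22 oocytes on the first and second principal components of log2(CPM + 1) over the 14606 tested genes; points are oocytes, coloured by female. On component 1 the oocytes 4 and 9 of V888 lie near V857 while the other V888 oocytes lie between them and the controls.

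Several called genes were high in V857 and in those oocytes of V888 and near or below the control level in most of the rest. Ubtf had 120 to 158 CPM in V857, 145 and 152 in V888 oocytes 4 and 9, 28.6 in oocyte 7, 11.2 to 25.6 in the other 7, and 8.94 to 20.7 in controls. Wee1 had 64.2 to 92.2 CPM in V857, 33.6 and 49.5 in oocytes 4 and 9, 22.6 in oocyte 7, 5.63 to 14.4 in the others and 8.40 to 14.4 in controls. Ddx4 had 125 to 184, 119 and 111, 41.2, 19.7 to 49.7 and 15.7 to 40.5 CPM in the same order. Above the highest control lay 9 of 15 cKO oocytes for Ubtf, 8 for Wee1 and 10 for Ddx4. For Wee1 3 others, all of V888, lay below the lowest control.

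The immediate early gene Ier2 had 33.3 to 73.0 CPM in V857, 56.6 and 17.7 in oocytes 4 and 9, 9.78 in oocyte 7, and 0.646 to 2.42 in the other 7, against 1.89 to 3.61 in controls. Xbp1 (15.8 to 30.9, then 67.9 and 12.9, then 4.28, then 0.116 to 1.66, against 0 to 1.73) and Lemd2 were distributed likewise. Lmo3, a transcriptional cofactor, showed the reverse: 0 to 1.2 CPM in V857, 0 and 0.155 in oocytes 4 and 9, 3.55 in oocyte 7, 16.6 to 46.4 in the others and 26.2 to 45.2 in controls. Lmo3 and Thsd7b, which followed the same order, were not called (edgeR adjusted p = 0.513 and 0.236). They and the genes of this paragraph were picked after their values were seen. Oocytes 4, 9 and 7 also had more of the 808 risers above the highest control, 789, 795 and 747, than the other 7 (563 to 687), near the 736 to 793 of V857. The risers were called from sums that include these oocytes, and 543 genes were called higher when oocytes 4 and 9 were left out. The counts are therefore no separate evidence of a subgroup.

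**Figure D5:**
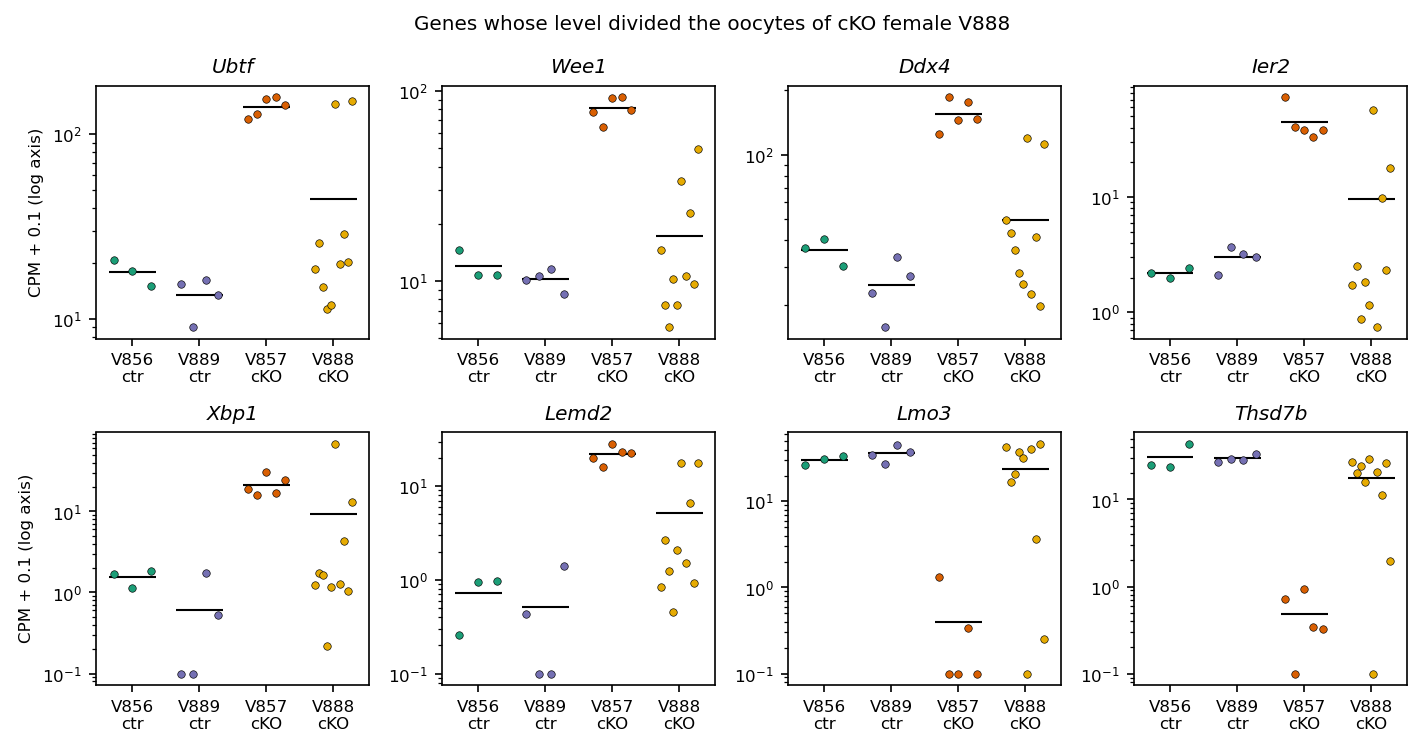
Level of 8 genes (CPM + 0.1, log axis) in each oocyte, by female; points are oocytes and bars are means of a female. In V888 a few oocytes reach or approach the level of V857 for the first 6 genes. For Lmo3 and Thsd7b a few drop to it or towards it and the rest lie within or below the control range.

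The 2 cKO females differed from each other in more genes than the 2 control females did. Mean levels differed at least 2-fold between V857 and V888 in 15.9% of tested genes and between V856 and V889 in 3.71% (log2(CPM + 1)). Among called risers these shares were 32.7% and 4.08%. Control levels of risers were mostly low, where 1 added to the CPM leaves little room for a 2-fold difference. The 2 shares of risers are therefore not directly comparable. V857 was above V888 in 596 of 808 risers, 350 of 796 fallers and 51.2% of all tested genes. Zfp395 averaged 36.4 CPM in V857 and 3.06 in V888, and Xpot, an exportin for tRNA, 23.3 and 2.82. Trap1a, an X-linked gene, averaged 1.66 CPM in V857 and 22.1 in V888, with 0 counts in all 7 controls. Slc6a3, the dopamine transporter gene, had 2.7 and 21.9 CPM, and AF067063 had 1.54 and 21.6. Xpot and Trap1a were at least 20.9-fold and 33.1-fold above 3 counts per control library.

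Some differences followed female numbers rather than genotype. Gpat3, an enzyme of triglyceride synthesis, had 77.5 to 160 CPM in V856 and V857 and 0 to 2.02 in V888 and V889. Pxdn and Fam124a had the same distribution, and none of the 3 was called. These were chosen after their values were seen, and the labels do not say what females with adjacent numbers share.

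Oocytes of other females gave the same directions. After 3 hours in culture (GV3h, 11 cKO and 8 control oocytes of 3 and 3 females) 4540 genes were called (31.1%), and 1602 of the 1604 genes called at GV had the same sign there, against 83.9% of all tested genes. Of the 1604, 1538 were also called at GV3h. No gene was called for a different effect at GV and GV3h in edgeR, with 215 at an unadjusted p under 0.05. The GV3h females share the estimate of spread with the GV fit, but no oocyte.

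RiboMinus GV libraries (7 cKO and 8 control oocytes, 2 females each) had the same sign for 1583 of the 1604 genes, against 80.4% of all genes. There 6 genes (0.0411%) were called: Exosc10, Mt1 (log2 fold change 8.60), Tet2 (2.47) and Hist1h1e (5.05), with Nox4 and Arl2bp (3.80). Mt1, Tet2 and Hist1h1e thus rose in libraries made with and without selection for poly(A), while Dazl and Nobox had log2 differences of 0.21 and 0.07 in RiboMinus libraries and 0.68 and 0.73 in polyA libraries. The difference between library types was not tested.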

How the data were processed

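Per the labels, polyA libraries were made from single oocytes. The authors deposited raw gene counts, 1 file per oocyte; per the submitters' processing notes the tools included cutadapt 2.5, FastQC 0.11.8, STAR 2.7.2a, SAMtools 1.9, HTSeq 0.9.1 and DESeq2 1.24.0 in R 3.5.1, with mm10. The annotation release and strand setting are not given in the sources used here. Summary lines (reads outside genes, ambiguous reads) were left out of library sizes. Coordinates, lengths and symbols came from GENCODE M21 on GRCm38 (55480 of 55573 identifiers matched), and promoters from RefSeq.

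Counts were summed per female over the 16 polyA females (GV, GV3h and MII) and fitted as 6 group means in edgeR 4.0.16 (R 4.3.3) with TMM factors and quasi-likelihood tests, two-sided, with Benjamini-Hochberg adjustment over the 14606 genes that passed filterByExpr (minimum count 10) on the 22 GV oocytes. The contrast was GV cKO minus GV control, so a log2 fold change is positive where cKO oocytes were higher. The series' design text says that sample names hold a female ID, and p-values measure the spread between these females. RiboMinus females were fitted likewise, with their MII females. CPM values use TMM factors of the 64 polyA libraries, and means ± SD are over oocytes.

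Named genes were Exosc10; the 10 largest rises and 10 largest falls in log2 fold change among called genes with at least 8 CPM in the higher genotype and no overlap of oocytes; the 5 largest rises and 5 largest falls in CPM; called genes of the lists; and the 5 called genes that differed most between the cKO females. Other names were chosen after their values were seen. A called gene of a list is not reported here. The comparison and the lists were chosen with earlier results of these data known. A control at 3 counts or fewer in every library gave a lower bound against 3 counts per library. No 2 libraries were alike within sampling noise (chi-square per gene at least 7.26). Alternatives were oocytes as samples, other sets of females, pairs of females with adjacent numbers, a limma 3.58.1 voom fit of oocytes in which females were a random effect, DESeq2 1.42.0, other scaling and filters, and leaving out each female. Python 3.11.15 with numpy 2.4.6, pandas 2.3.3, scipy 1.17.1 and matplotlib 3.10.9 was used for per-oocyte values and figures.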

Additional observations from a re-analysis of the deposited data

Results flagged for a closer look

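In the 7 control oocytes, 1 value of Tyro3 stood apart: oocyte 1 of V856 had 1.12 CPM and the other 6 had 0 to 0.145 CPM, a gap of 0.871 of the whole range. Among 46 sets of control values examined in this way, chance alone sets apart about 1 in 20.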

How the results depend on the processing

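Against 1604 called genes (808 higher, 796 lower), the count moved by over 1.5 times under these alternatives. With the 22 oocytes as samples 5908 were called (3207 higher, 2701 lower), and with DESeq2 2561 (1310 higher, 1251 lower). With only the 4 GV females 1 was called (1 higher, 0 lower; 1657 and 1320 at an unadjusted p under 0.05). Limma voom called 443 higher and 936 lower, library totals 1212 higher and 428 lower, and no filter on low counts 1479 higher and 877 lower. Leaving out each female in turn gave 142 to 2118 called, 29 to 1112 higher and 113 to 1006 lower; the lowest counts came without control V889.

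Females with adjacent numbers (V856 with V857, V888 with V889) are not labelled as paired. With these pairs as a replicate block, 832 were called (520 higher, 312 lower) over the 4 GV females, and 6872 (3499 higher, 3373 lower) with oocytes as samples; 684 of the 1604 calls held in the former. Within V857 and V856 alone 5056 were called (2739 higher, 2317 lower), and within V888 and V889 alone 5443 (2899 higher, 2544 lower); each pair holds 1 female per genotype, so these p-values do not speak for genotype. The fit without V888 oocytes 4 and 9 was chosen after seeing the data; its 1112 calls are all among the 1604.

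None of the 35 genes named by rank changed sign under any alternative run. With the 4 GV females 34 of them lost their call, without V889 26, without V856 16, with voom 13, without V857 11, with the pairs as a block 11, without V888 10 and with library totals 3. The 11 lost with the block include Dazl, Cnbp, Hspa5, Nobox, Rdx, Skp1a, Lamb1 and Bcl2l10. At 2000000 reads per oocyte the difference in detected genes was 1254 in place of 1567. With 2 females per genotype, 1 female moves most calls, and genes near 3 counts per library have imprecise fold changes.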
